A study of Mus musculus with 6 samples.

Results

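Serotonin receptor genes were followed across mouse autonomic ganglia as a set of 9 genes, Htr1a, Htr1b, Htr1d, Htr2a, Htr2b, Htr3a, Htr3b, Htr4 and Htr7. The set is defined by gene symbol, with no measured value in the rule, and makes up 9 of the 14 serotonin receptor symbols and 9 of the 32285 genes in the count matrices. The cells came from whole ganglia of pups at postnatal day 5, all of 1 genotype, in which a Cre transgene active in the autonomic lineage turns on the red reporter tdTomato from the Rosa locus. Every group carried both alleles, so there was no group without Cre, and the ganglia were dissociated whole, with glia and vessel cells. Droplet-based single-cell RNA sequencing was run in 2 rounds: round 1 held the stellate, sphenopalatine and pelvic_1 libraries (chemistry version 2), and round 2 held the coeliac, lumbar and pelvic_2 libraries (chemistry version 3). The stellate, coeliac and lumbar ganglia are sympathetic, the sphenopalatine is parasympathetic, and the pelvic ganglion, which serves the bladder, lower gut and genital organs, is the one that the study compared with the others. Only the pelvic ganglion had replicates, 1 in each round, so that its spread includes the change of chemistry. For every other ganglion, the ganglion, its library and, in part, its round cannot be told apart. How many pups went into a library is not given in the sources used here.

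Serotonin acts on nerve cells through receptors of 2 kinds. Htr3a and Htr3b encode subunits of a cation channel that opens when serotonin binds, and the B subunit works together with the A subunit. The other genes encode receptors coupled to G proteins: Htr4 and Htr7 raise cyclic AMP through Gs, Htr2a and Htr2b drive phospholipase C through Gq, and Htr1a, Htr1b and Htr1d lower cyclic AMP through Gi. In peripheral ganglia and the gut wall the channel is known for fast excitation of neurons, and the G protein-coupled receptors for slower changes in excitability and transmitter release. In blood vessels serotonin receptors set tone.

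After the study's filters, 1427 to 7219 droplets per library were kept, from 39353313 to 113352559 UMIs (unique molecular identifiers, counts of captured transcripts). Of these droplets 7052 were neurons and 8468 were glia. Neurons were deeper than glia, with medians of 26651 to 108598 UMIs per neuron against 3522 to 12151 per glial cell. All 6 neuronal markers were higher in neurons than in glia in all 6 libraries. Libraries of the same round shared 9 to 94 cell barcodes and libraries of different rounds at most 2. In all, 130 neurons had a barcode that occurred in another library of their round. Levels below are a gene's UMIs per 1000000 UMIs of the group of cells (CPM), with exact Poisson 95% intervals, and shares of cells carry exact binomial (Clopper-Pearson) 95% intervals. Both cover counting error only, not the spread between animals or libraries. Reads were captured at the 3′ end of transcripts, so levels do not scale with transcript length, but genes can differ in how well they are captured.

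Htr3a and Htr3b together held between 96.2% and 98.7% of the UMIs of the 9 genes in the neurons of every library. The remaining 7 genes were therefore read from few molecules. Over all 7052 neurons there were 170564 UMIs of Htr3a, 25851 of Htr3b, 2415 of Htr7, 596 of Htr2a, 297 of Htr1d, 218 of Htr1b, 71 of Htr2b, 25 of Htr4 and 4 of Htr1a. Neurons with at least 1 UMI of 3 or more of the genes made up 52.6% in pelvic_2, 33.3% in pelvic_1, 15.7% in the sphenopalatine, 14.3% in the lumbar, 11.8% in the coeliac and 5.43% in the stellate library. Neurons with no UMI of any of the 9 genes made up 44.4% in the stellate, 41.0% in the lumbar and 40.5% in the coeliac library, and at most 1.46% in the others. These shares depend on depth, which was highest in pelvic_2 neurons and lowest in stellate neurons.

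**Figure D1:**
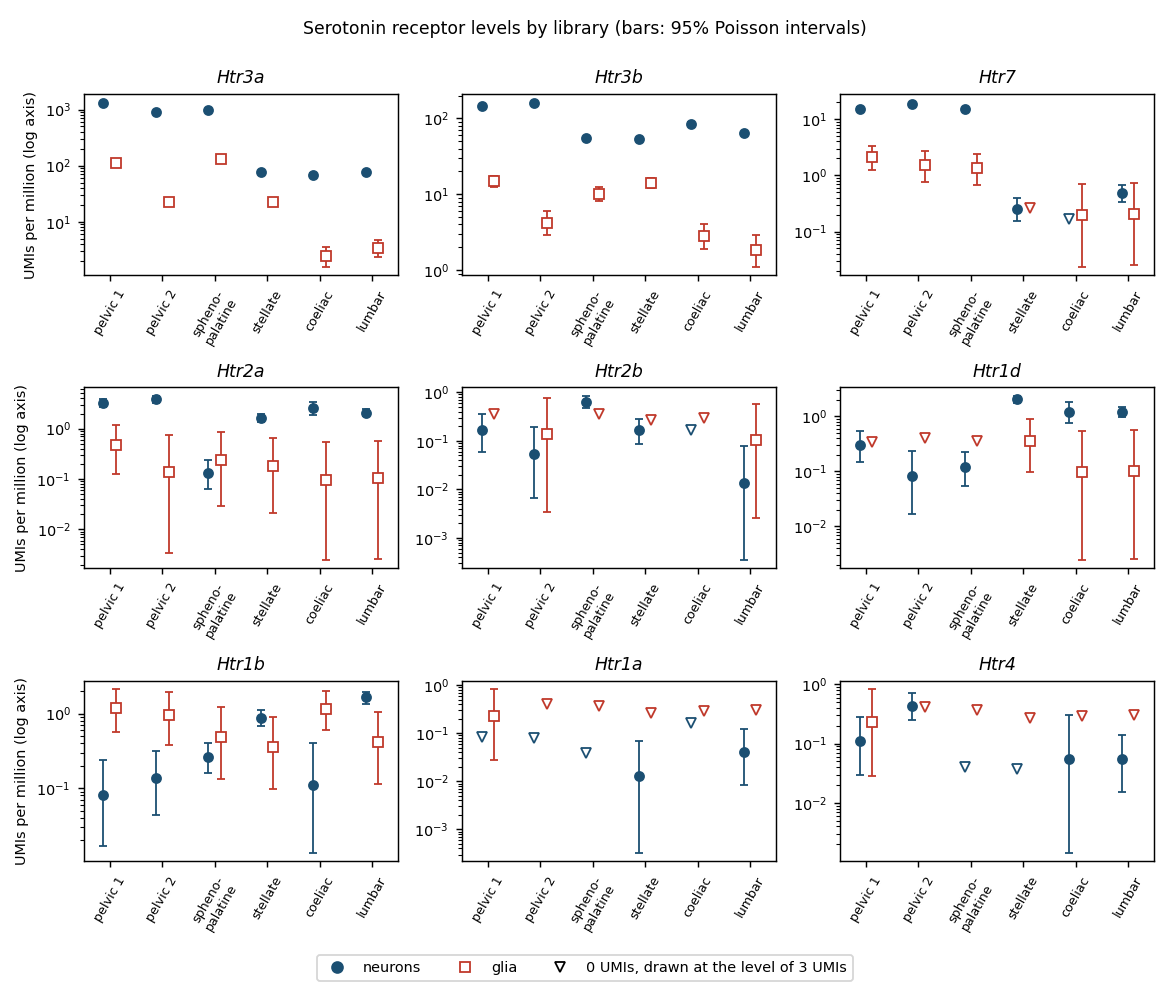
Level of each serotonin receptor gene, in CPM on a log axis, in the neurons (filled circles) and glia (open squares) of the 6 libraries, with 95% Poisson intervals; open triangles stand for 0 UMIs and are drawn at the level of 3 UMIs. Htr3a and Htr7 were high in the pelvic and sphenopalatine neurons and low in the stellate, coeliac and lumbar neurons, whereas Htr3b spanned a narrow range.

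Htr3a, the subunit that can form the channel by itself, was detected at 1322 CPM in pelvic_1 (interval 1310.4 to 1334), 997 in the sphenopalatine (990.1 to 1004) and 897 in pelvic_2 (888 to 907) neurons. In the sympathetic ganglia it was at 78.5 in lumbar (76.5 to 80.6), 78.3 in stellate (76.3 to 80.3) and 68.6 in coeliac (64.8 to 72.5) neurons. The 3 libraries from pelvic and parasympathetic ganglia thus lay together at the top, with no overlap with the sympathetic ones, and only the lumbar and stellate intervals overlapped. The same ganglion differed between its libraries by a factor of 1.47 (interval 1.45 to 1.49), so the order of pelvic_1, sphenopalatine and pelvic_2 lies within the spread between pelvic libraries. The share of neurons with an Htr3a UMI was 99.4% in the sphenopalatine, 97.5% in pelvic_1 and 98.4% in pelvic_2, and 36.2% in the stellate, 36.1% in the lumbar and 34.2% in the coeliac library.

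Glia, which are used here as cells that should lack the channel, also held Htr3a UMIs. Their levels were 130.5 CPM in the sphenopalatine, 111 in pelvic_1, 22.7 in stellate, 22.6 in pelvic_2, 3.39 in lumbar and 2.42 in coeliac glia. These were 3.44- (stellate) to 39.6-fold (pelvic_2) below the neurons of the same library. After each cell was thinned to 2000 UMIs, which left out no cell, the share of cells with an Htr3a UMI was 80.6% of neurons against 16.9% of glia in pelvic_1, 76.4% against 17.7% in the sphenopalatine and 72.6% against 3.83% in pelvic_2. The shares were 9.25% against 0.694% in the lumbar, 7.42% against 3.55% in the stellate and 7.17% against 0.504% in the coeliac library. Neurons stayed above glia at matched depth in every library. The summed level of the 6 neuronal markers in glia ranged from 577 CPM in pelvic_2 to 2607 in the stellate, against 11773 (pelvic_1) to 17208 (lumbar) in neurons, and the part of RNA from broken neurons in the glial values was not tested.

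Htr3b, the partner subunit, followed another order. Its level was 158 CPM in pelvic_2 (154 to 162), 148 in pelvic_1 (144 to 152), 85.7 in coeliac (81.5 to 90.1) and 63.4 in lumbar neurons (61.6 to 65.3). It was lowest in the sphenopalatine at 55.0 (53.3 to 56.7) and the stellate at 53.7 (52.1 to 55.3), whose intervals overlapped. The sphenopalatine ganglion therefore stood, at full depth, with the pelvic ganglion for Htr3a and with the stellate ganglion for Htr3b. With neurons thinned to 4000 UMIs, Htr3b was at 49.8 in lumbar, 47.4 in coeliac, 46.0 in sphenopalatine and 38.5 in stellate neurons. The coeliac and lumbar values thus changed places, but with overlapping intervals (34.5 to 63.7 and 42.7 to 57.7). At 2000 UMIs per neuron they kept their order, at 67.5 (46.2 to 95.3) in coeliac and 47.3 (37.9 to 58.3) in lumbar neurons. Without thinning, an Htr3b UMI was found in 89.3% of pelvic_2, 83.9% of pelvic_1, 57.9% of sphenopalatine, 54.0% of coeliac, 46.9% of lumbar and 42.7% of stellate neurons, against 2.08% to 5.77% of glia.

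The ratio of the subunits consequently differed between ganglia, whose libraries hold unlike mixes of noradrenergic and cholinergic neurons (ratios by class are given below). For every 100 Htr3a UMIs, neurons held 5.51 Htr3b UMIs in the sphenopalatine (5.34 to 5.69), 11.2 in pelvic_1 (10.9 to 11.5) and 17.6 in pelvic_2 (17.1 to 18.1). The values were 68.6 in the stellate (66.0 to 71.3), 80.8 in the lumbar (77.7 to 84.0) and 125 in the coeliac ganglion (116 to 135). In glia of the same libraries the ratio was 7.78 (6.16 to 9.73) in the sphenopalatine, 13.4 in pelvic_1, 18.7 in pelvic_2, 62.1 in stellate, 116 in coeliac and 54.5 in lumbar cells. The glial interval held the neuronal value in 5 of the 6 libraries, and not in the sphenopalatine.

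In sympathetic ganglia Htr3a was concentrated in few neurons. The tenth of neurons richest in Htr3a held 82.3% of all Htr3a UMIs in lumbar, 80.3% in coeliac and 77.5% in stellate neurons, against 27.8% in the sphenopalatine, 27.1% in pelvic_2 and 25.0% in pelvic_1. Neurons with Htr3b but no Htr3a UMI made up 22.4% of coeliac, 16.1% of stellate and 14.9% of lumbar neurons. In pelvic_1, pelvic_2 and the sphenopalatine they made up 0.896%, 0.822% and 0.0525%. Of neurons with an Htr3b UMI, 62.4% in the stellate, 58.6% in the coeliac and 68.1% in the lumbar library also had an Htr3a UMI, against 98.9% or more elsewhere. Shares of neurons with or without a UMI depend on depth, so a neuron without an Htr3a UMI need not lack the transcript. Glia also held Htr3b, at 14.1 CPM in the stellate, 2.80 in the coeliac and 1.85 in the lumbar library. The part of missed Htr3a UMIs and of RNA from broken neurons in these shares was not tested.

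Both channel genes lie on chromosome 9 of the mouse genome (build mm10, GRCm38) on the minus strand, Htr3a from 48899213 to 48911099 and Htr3b from 48935008 to 48964990. A gap of 23908 bases separates them. Htr3a overlaps the gene Gm32335 on the other strand. Htr7 lies on chromosome 19 from 35958734 to 36057507 (minus strand), Htr2a on chromosome 14 from 74640840 to 74709494 (plus strand) and Htr1d on chromosome 4 from 136423524 to 136444398 (plus strand). Htr1b lies on chromosome 9 from 81628291 to 81633828 and Htr2b on chromosome 1 from 86099026 to 86111970, both on the minus strand, and each overlaps a gene on the other strand (D430036J16Rik and Psmd1). Whether counting used the strand is not given in the sources used here, so values of Htr3a, Htr1b and Htr2b carry that uncertainty. Htr1a and Htr4 lie on chromosomes 13 and 18.

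Among the receptors coupled to Gs, Htr7 showed the same division of ganglia as Htr3a at a lower level. It was at 18.3 CPM in pelvic_2 (17.0 to 19.7), 15.0 in the sphenopalatine (14.1 to 15.9) and 14.9 in pelvic_1 neurons (13.7 to 16.2), and the sphenopalatine and pelvic_1 did not differ beyond counting error. It was at 0.484 in lumbar (0.337 to 0.673) and 0.252 in stellate neurons (0.154 to 0.389), and no UMI was found in the 237 coeliac neurons, where 3 UMIs would be a level of 0.167. A UMI of Htr7 was found in 41.1% of pelvic_2, 30.3% of sphenopalatine and 27.0% of pelvic_1 neurons, against 1.92%, 0.637% and 0.848% of the glia of those libraries. At 2000 UMIs per cell these shares were 4.93%, 3.10% and 3.36% of neurons and 0.697%, 0.255% and 0.339% of glia.

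Htr4, the other Gs-coupled receptor and a known facilitator of transmitter release in the gut, was close to the limit of detection. It had 16 UMIs in pelvic_2 neurons (0.433 CPM, 0.248 to 0.704), 4 in pelvic_1, 4 in lumbar and 1 in coeliac neurons. The sphenopalatine and stellate neurons had none, which allows a share of up to 0.158% and 0.110% of neurons with a UMI by the limit of 3 counts of the total.

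The Gq-coupled receptor Htr2a was low in all neurons and lowest in the parasympathetic ones. It was at 3.85 CPM in pelvic_2 (3.24 to 4.53), 3.22 in pelvic_1 (2.66 to 3.85), 2.56 in coeliac (1.87 to 3.41), 2.07 in lumbar (1.75 to 2.43) and 1.64 in stellate neurons (1.37 to 1.94). Each of these overlapped its neighbour in the order. The sphenopalatine stood below them all, at 0.132 (0.0631 to 0.242), which overlapped its glia at 0.242 (0.0293 to 0.874). Shares of neurons with a UMI ran from 16.2% in pelvic_2 to 0.525% in the sphenopalatine, against at most 0.174% of glia. These shares depend on depth. At 2000 UMIs per cell, 0.548% of pelvic_2, 0.448% of pelvic_1, 0.422% of coeliac, 0.330% of stellate and 0.323% of lumbar neurons had a UMI. Sphenopalatine neurons were at 0.0525%. The pelvic_2 interval (0.0664% to 1.97%) then overlapped that of its glia at 0.174% (0.00441% to 0.967%).

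Htr2b, the other Gq-coupled gene, went the opposite way. Of its 71 UMIs in neurons, 49 were in the sphenopalatine, where it reached 0.645 CPM (0.477 to 0.852) and 2.15% of neurons (1.55% to 2.91%). The other libraries lay between 0 (coeliac) and 0.164 (stellate), and no glial cell of the sphenopalatine had a UMI (interval 0 to 0.446 CPM).

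The Gi-coupled receptors were mainly read in sympathetic neurons. Htr1d was at 2.05 CPM in stellate (1.75 to 2.39), 1.23 in lumbar (0.988 to 1.51) and 1.22 in coeliac neurons (0.767 to 1.85), the latter pair overlapping. The pelvic and sphenopalatine neurons lay between 0.0813 (pelvic_2) and 0.2998 (pelvic_1) and overlapped each other. Htr1b was at 1.64 in lumbar (1.36 to 1.97) and 0.869 in stellate neurons (0.676 to 1.10), with 0.263 or less in the rest. In pelvic_1, pelvic_2 and the coeliac library Htr1b was higher in glia than in neurons, at 1.17 against 0.0818, 0.955 against 0.135 and 1.16 against 0.111 CPM, from 10, 7 and 12 glial UMIs. Htr1a could not be told from background at this depth, with 1 UMI in stellate, 3 in lumbar and 0 in all other neurons, beside 2 in the glia of pelvic_1.

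Counted over the 9 genes, neurons exceeded glia of the same library, with intervals apart, for 4 genes in the sphenopalatine, where 26.3% of all genes with a UMI did so, and for 4 in pelvic_1 (24.2% of all genes), 4 in pelvic_2 (24.0%), 4 in the stellate (24.5%), 4 in the coeliac (26.2%) and 5 in the lumbar library (25.5%). Htr3a and Htr3b were among them in all 6 libraries. Htr2a was among them in all but the sphenopalatine, Htr7 in the sphenopalatine and both pelvic libraries, Htr1d in the 3 sympathetic ones, Htr1b in the lumbar and Htr2b in the sphenopalatine. At thinned depth (4000 UMIs per neuron, 2000 per glial cell) 2 genes were left in each of pelvic_2, the coeliac and the lumbar library. The share over all genes was not counted at that depth, so this fall cannot be read as particular to the receptor genes. The 5 receptor genes outside the list were also rare, with 229 UMIs of Htr5a, 135 of Htr6, 14 of Htr1f, 9 of Htr5b and 7 of Htr2c over all neurons.

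Neurons were next divided by transmitter, as noradrenergic (more Th UMIs) or cholinergic (more UMIs of Chat, Slc18a3 and Slc5a7 together), with no serotonin receptor used for the division. The coeliac library had 225 noradrenergic and 0 cholinergic neurons and the sphenopalatine 1890 cholinergic and 1 noradrenergic. Both classes could be compared within the pelvic_1 (126 noradrenergic, 760 cholinergic), pelvic_2 (33 and 325), stellate (2622 and 49) and lumbar (836 and 47) libraries. Median depths of the classes were 39615.5 and 39468.5 UMIs in pelvic_1, 115153 and 110142 in pelvic_2, 26851 and 37608 in the stellate, and 71769 and 91566 in the lumbar library, with the noradrenergic value given first.

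In the pelvic ganglion the channel subunits and Htr7 were lower in noradrenergic than in cholinergic neurons, in both libraries. Htr3a was at 419.8 CPM in noradrenergic and 1470.0 in cholinergic neurons of pelvic_1, and at 206 and 976 in pelvic_2. The fitted log2 difference, noradrenergic minus cholinergic, was -2.04 (SE 0.18, adjusted p = 8.35e-29 by edgeR's quasi-likelihood test with Benjamini-Hochberg adjustment over all genes). Of the 14176 genes tested, 20.5% were called at an adjusted p below 0.05, 11.3% as lower and 9.16% as higher in noradrenergic neurons. Htr3b was at 50.4 and 164 in pelvic_1 and at 52.2 and 170.4 in pelvic_2, a log2 difference of -1.72 (SE 0.16, edgeR adjusted p = 7.28e-25). For both genes the classes lay far apart in each library, although most noradrenergic neurons held at least 1 Htr3a UMI, 89.7% in pelvic_1 and 93.9% in pelvic_2. In the mainly noradrenergic P3-like cluster, described below, 80.2% and 84.8% held 2 or more. These shares depend on depth, and glia of both libraries also held Htr3a UMIs, as given above.

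Htr7 showed a wider gap between the class averages, though the cholinergic class pools neuron types with unlike Htr7 and Htr2a levels, given below. It was at 1.79 CPM in noradrenergic and 17.0 in cholinergic neurons of pelvic_1, and at 0.530 and 20.3 in pelvic_2. The log2 difference was -3.90 (SE 0.33, edgeR adjusted p = 2.74e-30), and the cholinergic to noradrenergic ratio was 9.50 (4.97 to 20.9) in pelvic_1 and 38.4 (10.6 to 317) in pelvic_2, where the noradrenergic value rested on 2 UMIs. Htr2a was not found in noradrenergic pelvic neurons at all, with 0 UMIs in both libraries against 118 and 142 in cholinergic neurons. Taking 3 UMIs per library as the floor, cholinergic neurons were at least 6.29-fold (pelvic_1) and 5.40-fold (pelvic_2) higher. Its call depended on the tool, with an adjusted p of 2.71e-11 by edgeR and 0.457 by DESeq2. The other 5 genes had too few UMIs to be tested, from 0 (Htr1a) to 20 (Htr4).

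These tests rest on 2 libraries and 1 residual degree of freedom per gene. Their spread is largely borrowed from the other genes, so the small p-values do not measure how well the 2 libraries agree. The cholinergic to noradrenergic ratio of Htr3a was 3.502 (3.35 to 3.66) in pelvic_1 and 4.75 (4.42 to 5.11) in pelvic_2, with intervals apart. The block for library also matters: without it the edgeR adjusted p was 0.0707 for Htr3a, and 570 in place of 2906 genes were called. The summed level of the 7 glial markers was 99.3 CPM in noradrenergic and 177 in cholinergic neurons of pelvic_1, and 67.8 and 117 in pelvic_2, and that of the 5 fibroblast markers was 258 and 146 in pelvic_1 and 45.0 and 109.8 in pelvic_2. Their part in the differences was not tested.

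**Figure D2:**
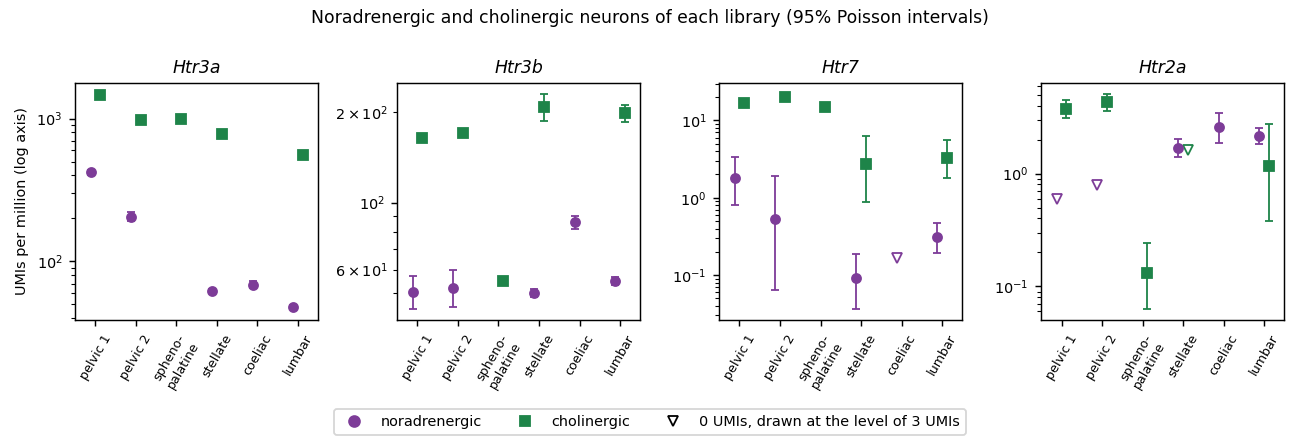
Levels of Htr3a, Htr3b, Htr7 and Htr2a in CPM, on a log axis, in noradrenergic (circles) and cholinergic (squares) neurons of each library, with 95% Poisson intervals; open triangles stand for 0 UMIs and are drawn at the level of 3 UMIs. Htr3a, Htr3b and Htr7 lay higher in cholinergic neurons in the 4 libraries that held both classes, and Htr2a only in the pelvic ones.

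Stellate and lumbar neurons allowed the same contrast outside the pelvic ganglion. Htr3a was at 61.9 CPM in noradrenergic and 774 in cholinergic stellate neurons, a ratio of 12.5 (11.8 to 13.3), and at 48.2 and 559 in lumbar neurons, a ratio of 11.6 (11.001 to 12.2). In pelvic_1 and pelvic_2 the ratios were 3.502 (3.35 to 3.66) and 4.75 (4.42 to 5.11). The class difference of Htr3a was therefore smaller in the pelvic ganglion: the interaction, pelvic minus the other ganglia, was 1.46 on the log2 scale (SE 0.21, edgeR adjusted p = 5.08e-05), where 8.34% of the 14829 genes tested were called. Pelvic noradrenergic neurons held more Htr3a than stellate, lumbar or coeliac ones (68.8 in the latter), while the cholinergic neurons of the 4 libraries lay within 559 (lumbar) to 1470.0 (pelvic_1).

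Htr3b had ratios of 4.12 (3.70 to 4.58) in the stellate and 3.59 (3.33 to 3.87) in the lumbar library, near the 3.26 (2.87 to 3.71) of pelvic_1 and the 3.27 (2.83 to 3.78) of pelvic_2. Its interaction was 0.13 (SE 0.20, edgeR adjusted p = 0.825). Htr7 was at 2.71 in cholinergic and 0.0909 in noradrenergic stellate neurons, from 5 and 7 UMIs, and at 3.29 and 0.311 in lumbar neurons, from 14 and 21 UMIs. Its ratios there, 29.9 (7.48 to 109) and 10.6 (4.97 to 21.8), overlapped those of the pelvic libraries, and the interaction was -0.18 (SE 0.82, edgeR adjusted p = 0.952).

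Htr2a was not higher in cholinergic neurons outside the pelvic ganglion. In the stellate library it was at 1.69 CPM in noradrenergic neurons with 0 UMIs in the 49 cholinergic neurons. The noradrenergic level was only 1.04-fold above the floor of 3 UMIs, so these classes were not clearly separated. In lumbar neurons it was at 2.15 in noradrenergic and 1.17 in cholinergic cells (5 UMIs), a cholinergic to noradrenergic ratio of 0.547 (0.175 to 1.31) that counting error does not separate from equality, and coeliac noradrenergic neurons were at 2.57. The interaction was called (edgeR adjusted p = 2.51e-04), with the pelvic noradrenergic value at 0. The Gi-coupled genes did not pass the same test (Htr1d adjusted p = 0.209, Htr1b adjusted p = 0.301, both by edgeR). Their levels in noradrenergic and cholinergic neurons were 1.97 and 4.89 CPM for Htr1d in the stellate and 1.23 and 1.41 in the lumbar library. For Htr1b they were 0.883 and 0.543 in the stellate and 1.75 and 0.235 in the lumbar library, and both cholinergic values rested on 1 UMI.

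The interaction rests on 4 libraries, 2 of them pelvic, and on 49 and 47 cholinergic neurons outside the pelvic ganglion; without the library block neither Htr3a (adjusted p = 0.498) nor Htr2a (0.0827) was called by edgeR. Th was at 261 CPM in stellate and 63.2 in lumbar cholinergic neurons, against 3.02 in pelvic_1 and 0.544 in pelvic_2, and the part of this difference in the interaction was not tested.

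Genes that make, store, take up or break down serotonin were set beside the receptors. In pelvic neurons 7 of the 9 could be tested. Of these, 5 were higher in noradrenergic neurons (9.16% of all genes tested were), 1 was lower (11.3% of all) and 1 did not pass. Their median log2 difference was 2.30 against 0.0031 over all genes tested. The higher ones were Ddc, the decarboxylase shared by serotonin and catecholamine synthesis (3.96), the vesicular monoamine transporters Slc18a1 (3.95) and Slc18a2 (3.82), and the monoamine oxidases Maoa (2.30) and Maob (1.64). All of these also serve noradrenaline, and the noradrenergic class was itself set by Th. Slc6a4, the transporter that takes up serotonin, was lower (-1.06, edgeR adjusted p = 7.19e-03), from 2.38 and 3.97 CPM in noradrenergic to 5.87 and 6.89 in cholinergic neurons of pelvic_1 and pelvic_2. Tph1 and Tph2, the enzymes that commit tryptophan to serotonin, had 22 and 165 UMIs over all neurons of the 6 libraries, and Tph2 did not pass the test (0.80, adjusted p = 0.642).

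All 14 genes for proteins that work with the receptors could be tested. In pelvic neurons 1 was higher in the noradrenergic class (9.16% of all genes tested were), 5 were lower (11.3% of all) and 8 did not pass, with a median log2 difference of -0.16. The higher one was the G protein gene Gnai1 (0.53). The lower ones were the phospholipases Plcb1 (-1.82), Plcb3 (-0.79) and Plcb4 (-0.58), and the G protein-gated potassium channel genes Kcnj3 (-0.72) and Kcnj6. Kcnj6 had 0 UMIs in noradrenergic neurons of both libraries and was at least 2.66-fold (pelvic_1) and 4.79-fold (pelvic_2) higher in cholinergic ones against the floor of 3 UMIs. Gnas, the Gs subunit (-0.10), Ric3, a chaperone of nicotinic and serotonin-gated channels (-0.14), and S100a10, a protein that binds receptors at the membrane (0.09), did not pass. In the interaction, where 8.34% of all genes tested were called, none of these 14 genes was called, and 4 of the 7 tested serotonin metabolism genes were higher, with medians of -0.15 and 0.85 against -0.06 over all genes tested.

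Within the pelvic ganglion, neurons were clustered without any serotonin receptor gene and named after the markers of the study's pelvic clusters P1 to P4, with the study's receptor marker of P1 left out. Noradrenergic neurons lay in the P3-like cluster (122 of its 131 neurons in pelvic_1 and all 33 in pelvic_2), 4 lay among the unnamed neurons of pelvic_1, and none lay in the P1-, P2- or P4-like clusters. P1-like neurons numbered 275 in pelvic_1 and 142 in pelvic_2, P2-like 257 and 113, P3-like 131 and 33, and P4-like 58 and 34, and 172 and 43 neurons stayed unnamed, in a cluster led by collagen and haemoglobin genes and another led by Wscd1 and Gfra1. P2-like neurons came from a cluster led by Grp and Nccrp1 (87 and 106 neurons) and another led by Lhfpl2 and Stum (170 and 7), so the type is made up differently in the 2 libraries. The values that follow describe the clusters, with no test, since the clusters and the levels come from the same cells.

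**Figure D3:**
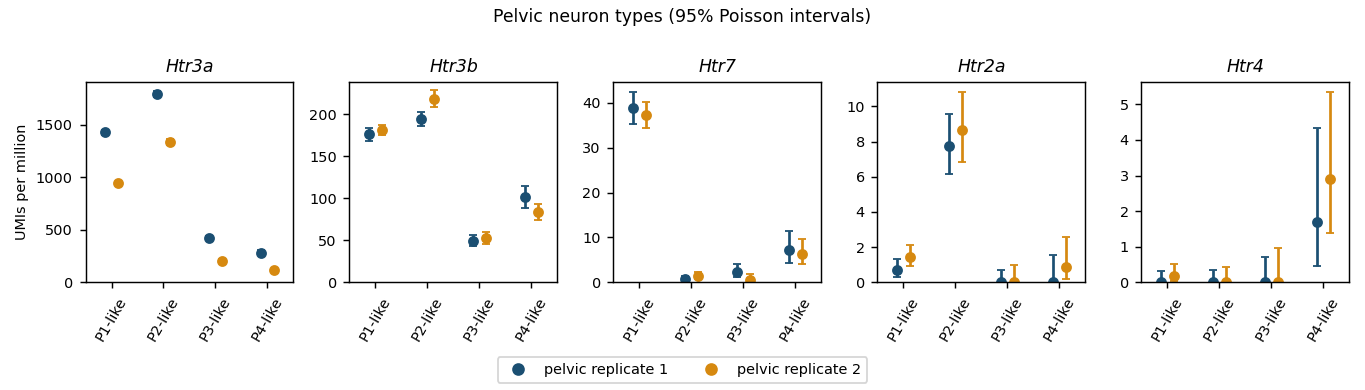
Levels of 5 serotonin receptor genes in the 4 named pelvic neuron types, in CPM on linear axes, for pelvic_1 and pelvic_2 (labelled replicate 1 and 2), with 95% Poisson intervals. Htr7 peaked in P1-like, Htr2a in P2-like and Htr4 in P4-like neurons in both libraries, and Htr3a was high in P1-like and P2-like neurons.

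Htr7 was highest in the P1-like neurons. It was at 38.7 CPM there in pelvic_1 (35.3 to 42.5) and 37.2 in pelvic_2 (34.4 to 40.3), and found in 66.2% and 80.3% of them. The next named type, P4-like, was at 7.19 and 6.40, near the unnamed neurons at 8.43 and 4.47, and P1-like neurons were 5.39-fold (3.33 to 9.34) and 5.82-fold (3.81 to 9.35) higher than P4-like ones. P3-like neurons were at 2.32 and 0.530 and P2-like neurons at 0.629 and 1.37. The P2-like neurons, though nearly all cholinergic, thus did not lie clearly above the mainly noradrenergic P3-like ones. The part of this mix of types in the class differences was not tested. The other Gs-coupled gene was found in another type: Htr4 had 4 and 10 UMIs in P4-like neurons, at 1.69 (0.461 to 4.33) and 2.91 (1.40 to 5.35) CPM, and in pelvic_2 10 of the 34 P4-like neurons held a UMI. The remaining Htr4 UMIs of pelvic_2 were 3 in P1-like and 3 in unnamed neurons.

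Htr2a was highest in P2-like neurons among the named types. It was at 7.73 CPM in pelvic_1 (6.18 to 9.54) and 8.65 in pelvic_2 (6.81 to 10.8), with a UMI in 23.0% and 31.9% of the cells. P1-like neurons were at 0.675 and 1.44, and the P2-like level was 11.4-fold (5.55 to 27.4) and 6.01-fold (3.75 to 9.94) higher. P4-like neurons had 0 and 3 UMIs and P3-like neurons 0 in both libraries. The unnamed neurons were at 3.89 and 9.18, so Htr2a was not limited to the P2-like cluster.

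The channel genes were spread over all pelvic types at unequal levels. Htr3a was at 1792 and 1335 CPM in P2-like, 1426 and 944 in P1-like, 419.7 and 206 in P3-like and 283 and 114 in P4-like neurons of pelvic_1 and pelvic_2. The order of types was the same in both libraries. P4-like neurons, though cholinergic, were thus below the noradrenergic P3-like neurons. Htr3b was at 194 and 219 in P2-like, 176 and 181 in P1-like, 101 and 83.2 in P4-like and 49.4 and 52.2 in P3-like neurons, so the last pair changed places. For every 100 Htr3a UMIs, P4-like neurons held 35.7 (30.7 to 41.5) and 73.1 (62.6 to 85.4) Htr3b UMIs, against 10.8 and 16.4 in P2-like, 12.3 and 19.2 in P1-like and 11.8 and 25.4 in P3-like neurons. Of the rarest genes, Htr1b was found only in P4-like neurons among pelvic neurons, as 3 UMIs in pelvic_1 and 5 UMIs of 1 neuron in pelvic_2.

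The other ganglia were clustered library by library, again without serotonin receptor genes, and their clusters are called by leading genes. In the sphenopalatine, Htr7 was at 47.6 CPM (43.9 to 51.6) in the 415 neurons led by Ntm and Edil3, 27.0 (23.9 to 30.4) in the 210 led by Pyy and Ddc and 12.9 (11.1 to 14.9) in the 350 led by Aldh1a2 and Dbh. The remaining 5 clusters lay between 0.681 and 3.88. Htr2b was found elsewhere: it was at 2.497 (1.57 to 3.78) in the 229 neurons led by Gpr50 and Pdlim3, 2.08 (0.677 to 4.86) in the 74 led by H2-Aa and Cd74 and 1.76 (1.08 to 2.73) in the 295 led by Rxfp1 and Hspb7, with 2 UMIs in all other sphenopalatine clusters. The cluster at the top for Htr7 was, with the Rxfp1 cluster at 15.4, the lowest for Htr3b, at 14.7. Htr3a was high throughout, from 497 to 1439.6 (Pyy and Ddc cluster).

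**Figure D4:**
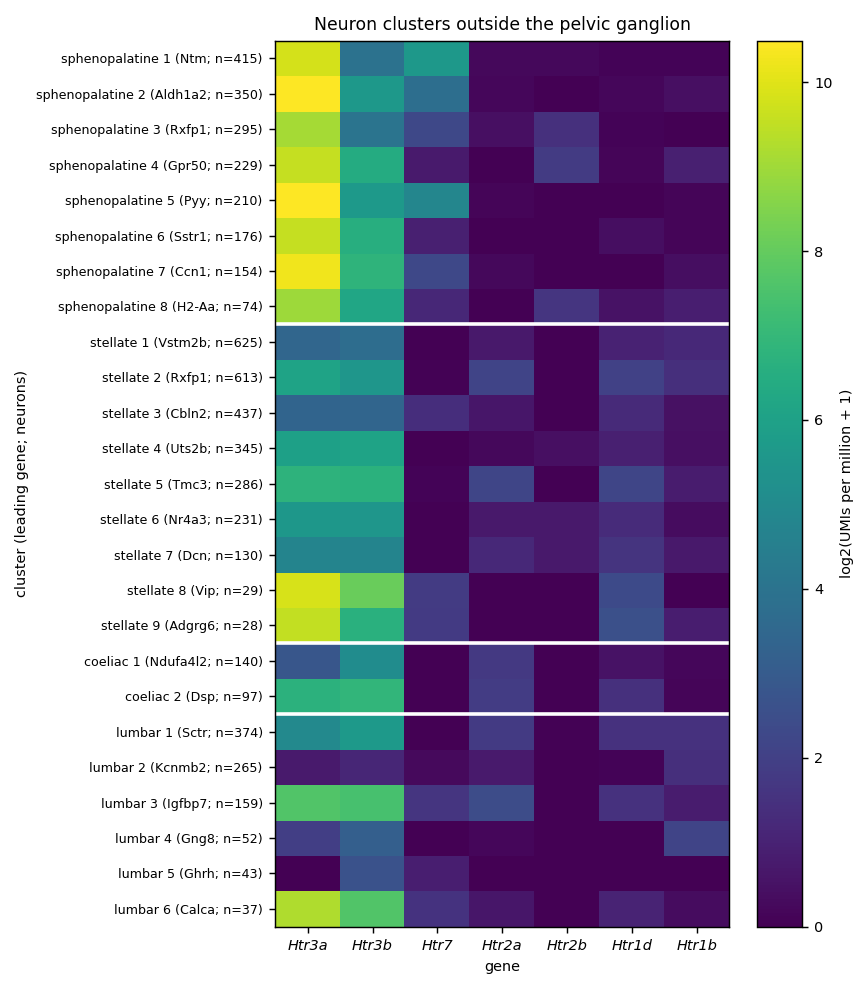
Heat map of log2(CPM + 1) of 7 serotonin receptor genes (columns) in the neuron clusters of the sphenopalatine, stellate, coeliac and lumbar libraries (rows, with the leading gene and number of neurons). Htr3a was bright in all 8 sphenopalatine clusters, and in the sympathetic libraries in the small Vip and Adgrg6 clusters of the stellate ganglion and the Calca and Igfbp7 clusters of the lumbar ganglion.

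In the stellate and lumbar ganglia Htr3a was highest in the smallest clusters, of 28, 29 and 37 neurons. Stellate neurons led by Vip and Barx2 (29 neurons) were at 919 CPM (866 to 975) and those led by Adgrg6 and Pnoc (28 neurons) at 734 (687 to 783), and the other 7 stellate clusters lay between 9.42 and 109.7, among them 130 neurons led by the fibroblast genes Dcn and Cd34 at 25.8. Lumbar neurons led by Calca and Hs3st4, with Sst and Vip, (37 neurons) were at 613 (588 to 639) and those led by Igfbp7 and Adgrg6 (159 neurons) at 198 (190.3 to 206). The 265 lumbar neurons led by Kcnmb2 were at 0.694, and the 43 led by Ghrh had no Htr3a UMI. Coeliac neurons split into 97 led by Dsp and Sst at 107 (101 to 113) and 140 led by Ndufa4l2 and Nxph4 at 5.999 (4.30 to 8.14), and the former were the deeper ones, with medians of 127474 and 47002 UMIs per neuron.

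Htr2a and the Gi-coupled genes were distributed differently. In the stellate library Htr2a was at 3.47 and 3.53 CPM in the clusters led by Rxfp1 and Zdhhc22 and by Tmc3 and Pyy, and at 1.32 or less in the other clusters. Htr1d was at 3.03 and 3.53 in the same clusters and at 4.16 and 4.86 in the Vip and Adgrg6 clusters, the latter from few cells. In the lumbar library Htr2a was highest in the Igfbp7 cluster, at 4.40 (3.28 to 5.76), and Htr1b in the 52 neurons led by Gng8 and Flrt2, at 3.41 (2.18 to 5.07) and in 30.8% of the cells. That Gng8 cluster had 1 Htr2a UMI and no Htr1d UMI.

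Htr2a and Htr7 were also read in cells of blood vessels, outside neurons and glia. Endothelial-like cells were named from 5 markers and mural-like cells, the smooth muscle and pericytes around vessels, from 7, all of which were over 2-fold higher in those cells in every library. The names rest on these same markers, so this is not an independent check. Htr2a was at 10.3 CPM in endothelial-like cells of the sphenopalatine (6.11 to 16.3), 11.3 in pelvic_1 (7.88 to 15.7), 16.8 in pelvic_2 (12.2 to 22.6), 7.95 in the stellate (4.55 to 12.9), 18.9 in the coeliac (13.04 to 26.6) and 20.7 in the lumbar library (13.3 to 30.9). These levels were above those of neurons in every library, from 3.52-fold in pelvic_1 (2.34 to 5.17) to 78.4-fold in the sphenopalatine (34.3 to 190.1). Fibroblast-like cells of the same libraries held 0 to 3 Htr2a UMIs. In the coeliac library haemoglobin genes were among the leading genes of the endothelial-like cells.

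Htr7 appeared in mural-like cells of 5 libraries. It was at 22.4 CPM in the sphenopalatine (10.7 to 41.2), 17.7 in pelvic_1 (11.7 to 25.7) and 14.9 in pelvic_2 (8.13 to 25.0), levels whose intervals overlap those of the neurons. The 26 lumbar and 33 coeliac mural-like cells had 3 and 1 UMIs, at 13.5 (2.79 to 39.5) and 2.87 (0.0726 to 16.0), with intervals that overlap those of all other libraries. The 100 stellate ones had 0 UMIs, an interval of 0 to 8.97 that lay below those of pelvic_1 and the sphenopalatine and overlapped the rest. Fibroblast-like cells were at 1.26, 0.861 and 0.459 in the sphenopalatine, pelvic_1 and pelvic_2, which is 17.8-fold (6.11 to 55.0), 20.5-fold (7.79 to 68.3) and 32.4-fold (10.2 to 135) below the mural-like cells. The part of RNA from neurons in these counts was not tested. The 6 neuronal markers summed to 190.2 to 823 CPM in the mural-like cells of these 3 libraries, against 11773 to 13882 in their neurons.

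**Figure D5:**
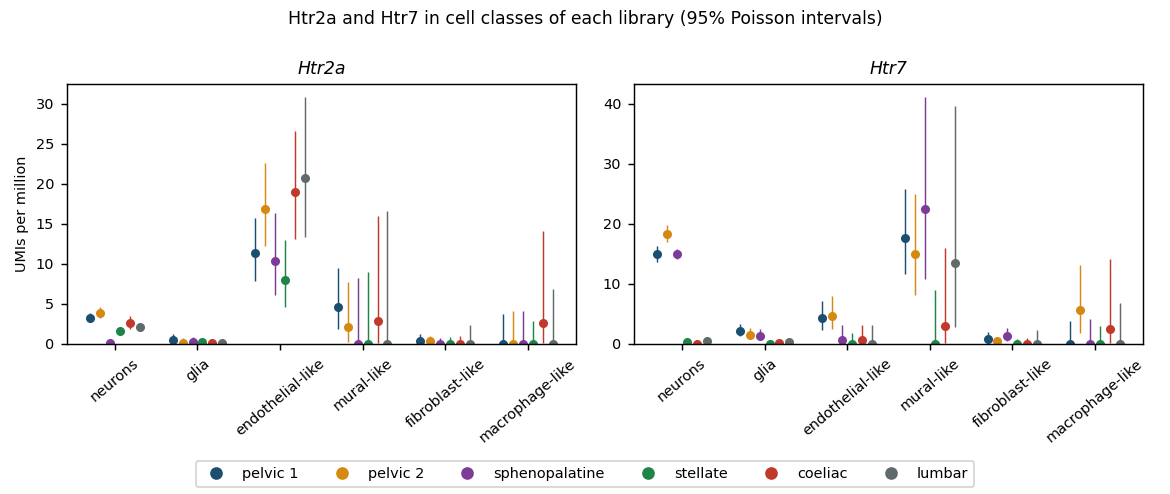
Levels of Htr2a (left) and Htr7 (right), in CPM on linear axes, in neurons, glia and 4 other cell classes, with 1 point per library and 95% Poisson intervals. Htr2a was higher in endothelial-like cells than in neurons in all 6 libraries, and the Htr7 intervals of neurons and mural-like cells overlapped in the pelvic and sphenopalatine libraries.

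Finally, genes with the most similar pattern were listed for the 6 members with at least 100 UMIs, by Pearson correlation of log2(CPM + 1) over 14 groups of neurons (pelvic types by library, and transmitter classes of the other libraries). The groups share libraries and depth, so the coefficients describe these cells and carry no p-value. Among 10127 genes the closest to Htr3a were Bcl2, an inhibitor of cell death (0.93), Tbc1d8 (0.93) and Fhod3 (0.93). Closest to Htr3b were Tmtc4 (0.92), Ppargc1b (0.89) and the growth factor gene Ptn (0.89). For Htr7 they were Wfs1 (0.95), Fam122b (0.92) and the mechanosensitive channel gene Piezo2 (0.90). For Htr2a they were the creatine synthesis gene Gatm (0.88), Tob1 (0.84) and Dok6 (0.83). Htr1d was closest to Bcat1 (0.92), Adgrg2 (0.88) and Mrpl47 (0.88), and Htr1b to the adhesion gene Cntn6 (0.89), Nxph1 (0.87) and B3gnt8 (0.84). Htr1b reached at most 1.75 CPM in these groups (lumbar noradrenergic neurons). The highest Htr1d value, 4.89 in stellate cholinergic neurons, rested on 9 UMIs. All coefficients are the highest among 10127 genes over only 14 groups, and how high they would be among unrelated genes was not tested.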

How the data were processed

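The deposited files were raw UMI counts per gene and droplet. Per the labels and methods, the authors made them with Cell Ranger 6.0.1 on mm10 as filtered matrices. As in the study, a droplet was kept if it held more than 1500 but fewer than 11000 detected genes, with mitochondrial UMIs below 15%. Retained droplets and neurons differ slightly in number from those the study states, whose integration was not repeated. Counts were normalised with sctransform 0.4.2 in R 4.3.3, and neurons were droplets with a mean above 3 for Stmn2, Stmn3, Gap43 and Tubb3 and below 1.15 for the glial markers. The neuronal cut was the study's, and the glial cut was the valley of the histogram. No doublet caller was used in the main analysis. In an alternative, 506 neurons were removed because over 50% of their 30 neighbours were simulated doublets.

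Transmitter classes needed at least 2 UMIs. Clusters used 3000 variable genes, 50 components, 20 neighbours and Louvain resolution 0.3, with mutual nearest neighbours between the pelvic libraries. UMIs summed per library and class were tested with edgeR 4.0.16 (quasi-likelihood, TMM), with library as a block because both classes of a pair come from 1 library, and called at an adjusted p below 0.05. The design holds the pelvic fit (4 sums) and the interaction (8 sums). Each SE is the absolute log2 difference divided by the square root of the test's F statistic, not a measured spread between libraries. On simulated data of 13891 genes, the pelvic fit recovered 71.6% of genes changed 2-fold and 88.7% of those changed 4-fold, with 6 false calls. The simulated counts used the spread estimated from these same sums and an equal class effect in both libraries. Their false calls are therefore not an error rate for the real calls. DESeq2 1.42.0 was an alternative. Differences of a single pelvic library are on the log2(CPM + 1) scale. Gene positions came from the GENCODE annotation of GRCm38. The genes named were the members, their fixed lists and the 3 closest genes of each member with at least 100 UMIs. In clusters, the leading genes were named. The members and all lists were chosen with earlier results of these data known. Genes that share reads with near-identical copies were not sought.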

Additional observations from a re-analysis of the deposited data

Results flagged for a closer look

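Of the 6 serotonin receptor genes tested, 2 had a difference between noradrenergic and cholinergic neurons that itself differed between the pelvic and the stellate and lumbar ganglia. The test was the interaction term of edgeR's quasi-likelihood fit over all genes, where 8.34% of the 14829 genes tested were called. For Htr3a the interaction was 1.46 on the log2 scale, with an adjusted p of 5.08e-05: noradrenergic neurons were lower in all 4 libraries, and less so in both pelvic ones. For Htr2a the adjusted p was 2.51e-04: cholinergic neurons were higher in both pelvic libraries, and the noradrenergic value was the higher one in the stellate and lumbar libraries, where the lumbar classes were within counting error of each other. The pelvic noradrenergic neurons had 0 Htr2a UMIs, so no size is given for that interaction.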

How the results depend on the processing

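The count of genes called between pelvic noradrenergic and cholinergic neurons was 2906 and lay between 2773 and 3005 under another size factor, no low-count filter, stricter classes, classes by clusters, other neuron or glial thresholds, removal of simulated doublets and removal of shared barcodes (the last chosen after seeing the data). It was 1512 with DESeq2, 589 with neurons thinned to 4000 UMIs and 570 without the replicate block. The interaction count was 1236, 948 to 953 without either pelvic replicate, 244 thinned and 119 without the replicate block. Thinning leaves fewer UMIs to test, and the other causes were not tested. Under the other alternatives it was 872 to 1657. With neurons thinned to 4000 and glia to 2000 UMIs, the members above glia fell to 2 in each of the coeliac, lumbar and pelvic_2 libraries. The share over all genes was not counted at that depth.

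Among members, Htr2a lost its call with DESeq2 (adjusted p = 0.457), Htr3a without the replicate block (log2 difference -1.97, adjusted p = 0.0707), and in the interaction, without the replicate block, so did Htr3a (1.53, adjusted p = 0.498) and Htr2a (adjusted p = 0.0827). No other member's call changed with the block. With neurons thinned to 4000 UMIs, the pelvic Htr7 difference was -2.44 (edgeR adjusted p = 0.0494). Htr2a gave no result in the thinned pelvic fit or the thinned interaction, so its calls were not checked at that depth. The Htr7 interaction, never called, changed sign from -0.18 to 0.46 when thinned and ranged from -1.60 to 0.51 without either pelvic replicate. The Htr3a interaction was 1.15 to 1.69 there. Without pelvic replicate 1 or 2 the pelvic contrast has no residual spread, so it gave differences on the log2(CPM + 1) scale, which draws low genes towards 0, and no test: Htr3a -2.24 and -1.81, Htr3b -1.69 and -1.68, Htr7 -3.80 and -2.69. With pelvic_2 alone no cluster could be named P4-like. Members other than Htr3a and Htr3b rest on few UMIs. Levels of members moved beyond their counting intervals mostly when neurons were thinned, and those of Htr3a and Htr3b did so too in most libraries. In coeliac neurons thinned to 4000 UMIs, Htr3a was at 35.6 CPM in place of 68.6 and Htr3b at 47.4 in place of 85.7. Thinned to 2000 UMIs, coeliac Htr3a was at 52.7 (34.1 to 77.9) and Htr3b at 67.5 (46.2 to 95.3), intervals that hold the full-depth values. This did not hold in every library. Stellate Htr3a was then at 55.1 (49.0 to 61.7) and Htr3b at 42.6 (37.3 to 48.4), below 78.3 and 53.7 at full depth. Pelvic_2 Htr3b was at 192 (161 to 226), above 158, and both pelvic_1 intervals held the full-depth values. With the mean of each neuron's own level, 18 of the 54 levels moved. The level of a group gives deeper neurons more weight, and thinning gives each neuron the same.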
